A study of Mus musculus with 474 samples.

Results

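The lysosomal glycosidases described here were 7 genes, Hexa, Gla, Glb1, Gaa, Gusb, Man2b1 and Fuca1, out of 55450 genes in the deposited count tables, taken by name and found through their Ensembl identifiers. All 7 had counts, and all 7 passed the filters of every test below. The study followed mouse haematopoietic stem cells (HSCs), the cells that maintain the blood, through their first division in culture by time-lapse imaging, picked the daughters by hand, and sequenced each by Smart-seq2, a full-length, polyA-based single-cell method. The cells came from the bone marrow of wild type male C57BL/6JRj mice aged 12 to 19 weeks, with no genetic change or treatment named in the labels. In each division the daughter that had received more lysosomes is called high and its sister, which had received fewer, low. This account rests on the divisions with 1 high and 1 low daughter sequenced, from 9 culture experiments. Sequencing run 5 held 20 divisions of experiment 60, 17 of experiment 68, 11 of experiment 72 and 19 of experiment 73, and run 4 held 12 of experiment 69, 27 of experiment 74, 33 of experiment 75, 38 of experiment 76 and 26 of experiment 77. A further 68 cells were sequenced without their sister. The label is relative to the sister and says nothing of the absolute lysosome content, and the labels do not tie experiments to animals, so p-values measure the spread between these cultures or divisions.

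Lysosomal glycosidases cut sugars from glycolipids, glycoproteins, glycosaminoglycans and glycogen in the acid interior of the lysosome. They are made in the endoplasmic reticulum, tagged with mannose 6-phosphate and carried to the lysosome by mannose 6-phosphate receptors, and the loss of each of the 7 causes a lysosomal storage disease in humans. In HSCs, lysosomes are known as organelles that can be passed on unevenly at division, and the transcription factor TFEB is known to act on many lysosomal genes through promoter elements with the core CACGTG. Hexa codes for the alpha subunit of beta-hexosaminidase A, which acts on GM2 ganglioside, and Gla for alpha-galactosidase A, which acts on globotriaosylceramide. Glb1 codes for the lysosomal beta-galactosidase, often stained as a marker of senescent cells, and Gaa for the acid alpha-glucosidase that breaks down glycogen. Gusb codes for beta-glucuronidase, Man2b1 for the lysosomal alpha-mannosidase and Fuca1 for the tissue alpha-fucosidase.

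In GRCm38 with the GENCODE vM21 annotation Hexa (chr9:59539540-59565109, plus strand) and Glb1 (chr9:114401076-114474898, plus strand) share a chromosome, and the other 5 lie on chromosomes of their own. Gla is at chrX:134588149-134601125 on the minus strand, Gaa at chr11:119267887-119285454 on the plus strand, Gusb at chr5:129989011-130003049 on the minus strand, Man2b1 at chr8:85083270-85098282 on the plus strand and Fuca1 at chr4:135920735-135940311 on the plus strand. Hexa and Glb1 shared exonic bases with another annotated gene, and the other 5 did not. Of the exonic bases of Hexa 12.8% overlapped Tmem202 on the opposite strand, which had a count in 9.36% of cells, and of those of Glb1 5.49% overlapped Tmppe on the same strand, which was listed at 0 in every cell. Whether counting used strand is not given in the sources used here, so reads in the first overlap cannot be told apart. In the second, on the same strand, strand could not separate them either.

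All 7 genes matched a RefSeq promoter window (GRCm38.p6), which runs from 250 bases before to 50 after the annotated start. The core CACGTG, searched as these letters, which read the same on both strands, was in 3 of the 7 windows (Gla, Glb1 and Gaa) and in 7.15% of 32851 windows of all genes. The longer TCACGTGA, which contains that core, was in the Gla window alone among the 7, at 2 places, and in 0.974% of all windows. GGGCGG, the GC box, was in 5 of the 7 windows (not Gaa or Gusb) and in 35.7% of all windows on either strand, and TATAAA was in none of the 7 and in 13.6% of all. The stretches before both the RefSeq and the GENCODE start are shown for the 3 genes with the core and for Man2b1. Averaged over the sisters of each division, the Man2b1 level followed that of Gaa most closely among the 7. Capitals mark CACGTG.
Gla (chrX:134601126-134601255, minus strand): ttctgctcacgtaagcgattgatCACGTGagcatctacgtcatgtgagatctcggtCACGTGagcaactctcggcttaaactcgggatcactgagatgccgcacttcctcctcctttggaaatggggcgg
Glb1 (chr9:114400828-114401075, plus strand): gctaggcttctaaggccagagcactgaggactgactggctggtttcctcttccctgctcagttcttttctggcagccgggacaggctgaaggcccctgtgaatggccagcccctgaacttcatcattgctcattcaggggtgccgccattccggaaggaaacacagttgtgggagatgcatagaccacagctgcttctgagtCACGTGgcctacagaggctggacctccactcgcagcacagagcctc
Gaa (chr11:119267713-119267886, plus strand): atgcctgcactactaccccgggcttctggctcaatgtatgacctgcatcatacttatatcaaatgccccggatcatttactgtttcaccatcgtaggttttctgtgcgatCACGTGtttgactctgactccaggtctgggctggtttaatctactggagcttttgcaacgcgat
Man2b1 (chr8:85083019-85083268, plus strand): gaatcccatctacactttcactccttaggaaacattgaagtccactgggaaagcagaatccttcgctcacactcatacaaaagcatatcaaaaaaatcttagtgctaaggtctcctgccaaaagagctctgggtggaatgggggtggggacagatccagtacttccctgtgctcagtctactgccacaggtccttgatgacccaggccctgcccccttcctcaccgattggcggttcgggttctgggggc
Counted from the RefSeq start, the core began at positions -227 and -194 in Gla, -48 in Glb1 and -140 in Gaa. A match in these letters is a description of the window and not evidence of binding.

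The cells carried 76735 to 2444858 counts on genes (median 846198), with a median of 1051909 in run 5 and 792257 in run 4, and a median of 9868 detected genes. HSC markers were broadly present: all 8 had counts, and the median marker was detected in 94.6% of cells. Markers of other cells were mixed. The median marker was detected in 56.03% of cells for megakaryocytes, 5.67% for erythroid cells, 5.42% for macrophages and monocytes and 3.57% for myeloid cells. For stroma and endothelium it was 2.83%, for mast cells and basophils 0.739% and for lymphocytes 0.123%. Cd3e, Rag1 and Ms4a1 of lymphocytes, Mpo and Ctsg of myeloid cells, C1qa of macrophages and Cma1 and Tpsb2 of mast cells were listed at 0 in every cell, which is not read as absence. Some other members of the same lists had counts in many cells, among them Lyz2 (99.5% of cells), Prtn3 (73.9%), Cd68 (56.7%), Csf3r (49.01%), Cpa3 (43.8%), Il4 (35.5%) and Nkg7 (24.4%). So had the endothelial marker Pecam1 (93.1%), Pf4 (69.7%) and Vwf (65.8%) of megakaryocytes and Hbb-bt (62.3%) of erythroid cells. The part of other cells or free RNA in these counts was not tested. Experiment 69 was spread over plates 1, 2 and 3 of run 4, which also held experiments 74, 75 and 76, and every other experiment was on a single plate. No experiment was in both runs. For the experiments on a plate of their own, experiment and plate cannot be told apart.

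Every cell expressed glycosidase transcripts, and 6 of the 7 genes were close to universal. Hexa had a count in 100% of the cells with a sister, Gaa in 99.8%, Glb1, Gusb and Man2b1 in 99.5% each and Fuca1 in 98.03%. Gla was the exception, with a count in 66.5% of cells (exact 95% binomial interval 61.7% to 71.1%, covering counting error only) and in 61.6% of cells thinned to 200000 counts, with 10 shallower cells left out. All 7 genes were detected together in 65.8% of cells and 6 of them in 32.3%, and Gla was therefore the gene most often missing. In CPM, which scales every cell to the same total on genes, the median cell had 229.9 of Gusb, 216.2 of Hexa, 178.9 of Man2b1, 178.3 of Gaa, 132.4 of Glb1, 72.5 of Fuca1 and 9.83 of Gla. Cells differed widely: the 5th and 95th percentiles were 84.5 and 470.1 CPM for Hexa, 68.7 and 429.4 CPM for Gusb, and 9.95 and 177.3 CPM for Fuca1.

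Per exon length, in TPM (CPM divided by exon length and rescaled to the same total), Hexa was the most abundant of the 7 and Gla the least. Exon length here is that of the merged exons of all annotated transcripts, 8026 bases for Man2b1 and 1996 for Hexa. The order therefore depends on the annotation, and lengths of single transcripts were not used. Averaged over the 9 experiments, Hexa reached 365.05 ± 98.9 TPM (SD), Gusb 160.9 ± 24.3, Glb1 138.4 ± 25.8, Gaa 125.5 ± 24.4, Fuca1 76.03 ± 10.6, Man2b1 72.1 ± 14.9 and Gla 16.9 ± 5.5 TPM. Hexa lay above Gusb in 9 of 9 experiments, Gaa above Fuca1 in 9 of 9 and Man2b1 above Gla in 9 of 9. Neighbours in the middle of the order were closer: Gusb lay above Glb1 in 8 of 9 and Glb1 above Gaa in 7 of 9. The levels of Fuca1 and Man2b1 differed by less than their spread, with Fuca1 above Man2b1 in 4 of 9 experiments and a mean difference of 3.88 ± 12.7 TPM.

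**Figure D1:**
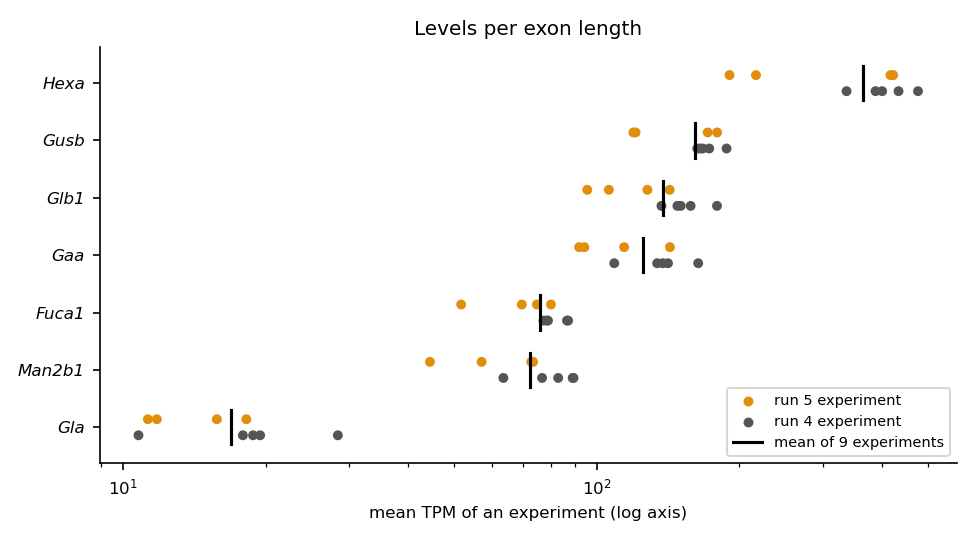
Mean TPM of each gene in each of the 9 experiments (points, log axis; orange for run 5, grey for run 4), with the mean over experiments as a black bar. Hexa lies highest at 365.05 TPM and Gla lowest at 16.9 TPM, and the points of Fuca1 and Man2b1 overlap.

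The comparison of high with low daughters asks whether transcripts of these enzymes follow the inheritance of the organelle they work in. None of the 7 passed the test. Sums of the counts for each label within an experiment were tested with edgeR's quasi-likelihood test with the experiment as a block and Benjamini-Hochberg adjustment over 15854 genes, of which 0 were called at an adjusted p under 0.05 (0% of all genes; 658 genes, 4.15%, had an unadjusted p under 0.05). DESeq2 called 3 genes (0.0189%) on the same sums and limma 0 on differences between sisters, with no glycosidase among them. The difference was above 0 for 6 of the 7 members, with a median of 0.06 on the log2 scale, beside 49.8% of all genes and a median of -0.00 over all genes.

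Beta-glucuronidase and alpha-mannosidase had the differences nearest to the spread of the experiments. Gusb ranged over experiments from 186.4 to 285.4 CPM in high daughters (median 256.9) and from 157.6 to 291.3 CPM in low daughters (median 232.2). The ranges overlapped, and the high daughters lay above the low ones in 7 of 9 experiments and in 53.7% of divisions. The fitted log2 difference of Gusb was 0.12 ± 0.06 (SE; unadjusted p = 0.0675, adjusted p = 0.999, edgeR quasi-likelihood test). Man2b1 ranged from 144.97 to 230.4 CPM in high daughters (median 192.7) and from 93.9 to 252.2 CPM in low daughters (median 192.8). Here too the ranges overlapped, and the log2 difference was 0.12 ± 0.09 (adjusted p = 0.999, edgeR quasi-likelihood test).

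The other 5 differed less or varied more. Hexa ranged from 127.1 to 297.3 CPM in high daughters (median 262.6) and from 104.8 to 284.99 CPM in low daughters (median 263.1), with a log2 difference of 0.06 ± 0.06. Glb1 ranged from 104.5 to 164.4 CPM in high daughters (median 139.2) and from 86.1 to 179.05 CPM in low daughters (median 137.4), with a difference of 0.03 ± 0.07. These 2 enzymes stood at nearly the same median in both kinds of daughter. Gaa ranged from 150.9 to 251.3 CPM in high daughters (median 192.8) and from 133.7 to 247.7 CPM in low daughters (median 200.03), with a difference of -0.00 ± 0.05 (95% interval -0.11 to 0.10). That of Gaa was the narrowest interval of the 7, and it spans both directions. Fuca1 ranged from 52.8 to 97.5 CPM in high daughters (median 85.98) and from 45.7 to 113.01 CPM in low daughters (median 76.9), with a difference of 0.02 ± 0.09. Gla, the scarcest, ranged from 13.7 to 26.9 CPM in high daughters (median 17.1) and from 4.29 to 25.9 CPM in low daughters (median 15.8), with a difference of 0.23 ± 0.24. The wide error of Gla went with its low level, and it was detected in 68.97% of high daughters and 64.04% of low daughters. Library measures differed little between labels: high daughters had 9811 and low daughters 9744 detected genes on average over experiments, and the difference of 67.6 ± 277.96 (SD, n = 9) was smaller than its spread.

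**Figure D2:**
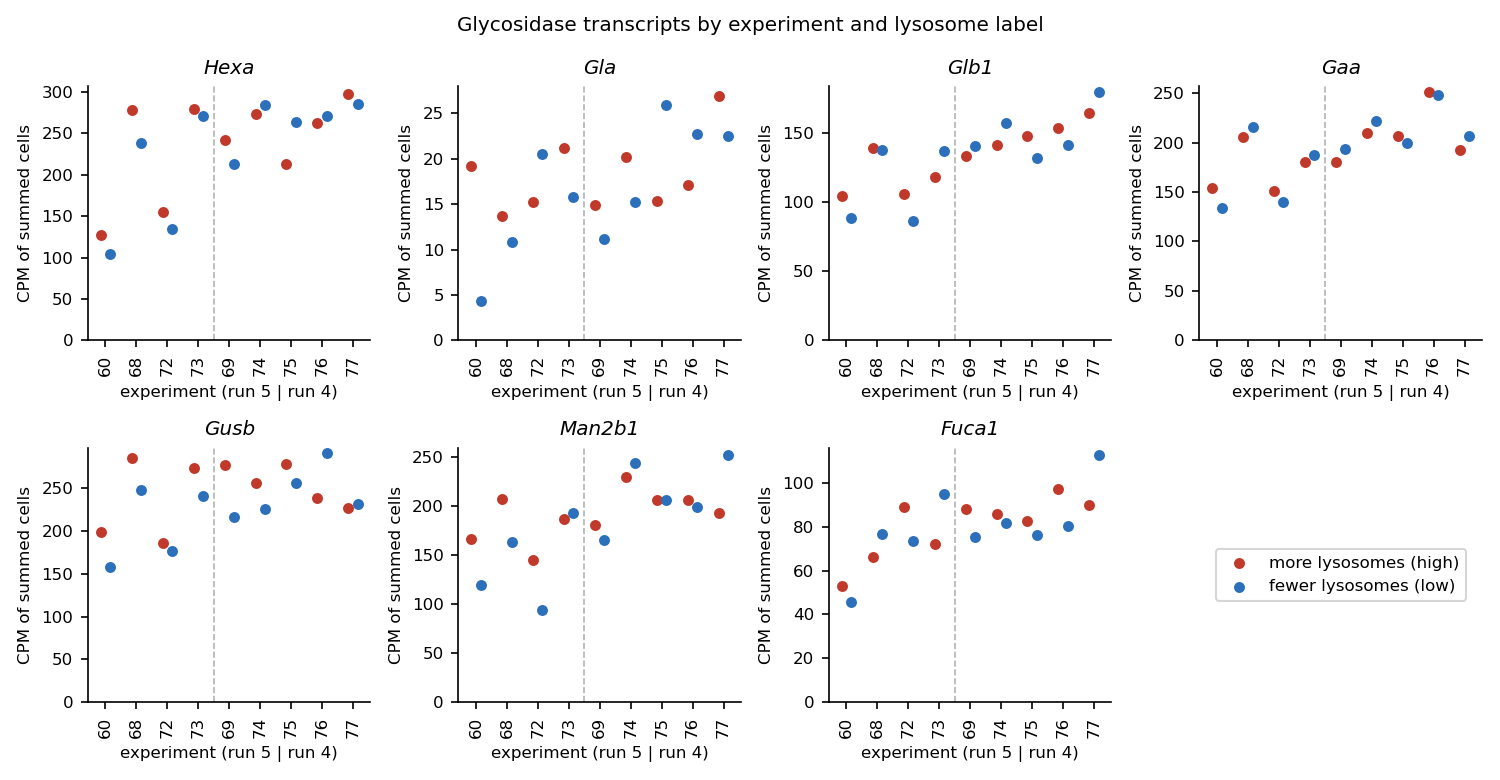
CPM of the summed cells of each experiment (x axis; run 5 left of the dashed line, run 4 right of it) for high daughters (red) and low daughters (blue). Red and blue points overlap for every gene, and experiments 60 and 72 of run 5 lie low for Hexa, Glb1, Gaa, Gusb and Man2b1.

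Within the runs, the label difference of Man2b1 was 0.34 ± 0.12 in run 5 alone (unadjusted p = 0.0226, adjusted p = 0.999, edgeR quasi-likelihood test) and -0.05 ± 0.08 in run 4 alone (adjusted p = 0.9996). In run 5, high and low daughters had 166.95 and 119.06 CPM of Man2b1 in experiment 60, 207.6 and 163.2 CPM in experiment 68, 144.97 and 93.9 CPM in experiment 72, and 187.4 and 192.8 CPM in experiment 73. High daughters thus lay above low daughters in 3 of the 4 experiments of run 5. The difference between the runs was tested as an interaction and did not pass: Man2b1 had a label effect larger by 0.40 ± 0.15 in run 5 than in run 4 (unadjusted p = 0.0198, adjusted p = 1, edgeR quasi-likelihood test), and 0 of 15854 genes were called, with 672 genes (4.24%) at an unadjusted p under 0.05. For Hexa the interaction was 0.21 ± 0.11 (unadjusted p = 0.0844, edgeR quasi-likelihood test), and the other 5 members had unadjusted p-values of 0.243 or more.

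**Figure D3:**
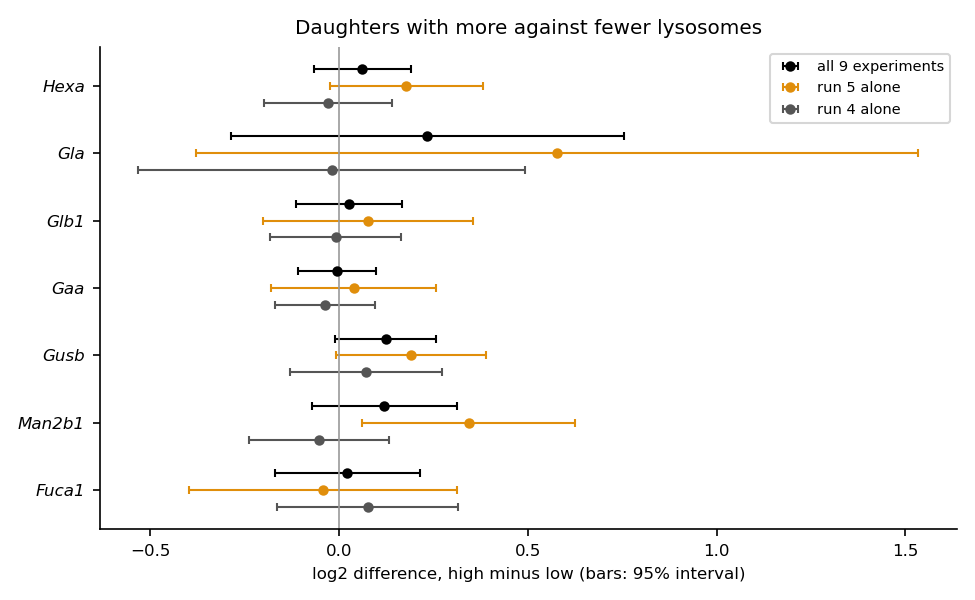
Fitted log2 difference, high minus low daughters, with its 95% interval, for all 9 experiments (black), run 5 alone (orange) and run 4 alone (grey). Every interval over the 9 experiments includes 0, and that of Man2b1 in run 5 alone does not.

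Whether sisters resemble each other was measured by the intraclass correlation (ICC) of log2(CPM + 1) over all divisions after centring on experiment and plate, where 0 means that sisters are no more alike than other cells of their culture. Of the 7 glycosidases only Gusb passed the test at an adjusted p under 0.05, beside 26.4% of the 11699 genes tested. The ICC was 0.28 for Gusb (95% interval 0.14 to 0.40, adjusted p = 0.000359, F test with Benjamini-Hochberg adjustment over all genes tested), 0.13 for Gaa (adjusted p = 0.104), 0.10 for Gla (0.171) and 0.08 for Hexa (0.240). For Glb1, Fuca1 and Man2b1 it was below 0, at -0.05, -0.06 and -0.09. The median of the 7 was 0.08 and the median of all genes tested 0.09. In the same cells the HSC markers had a median ICC of 0.35, with 7 of 8 called.

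The call for Gusb rested on 1 division. In a division of experiment 68 the high daughter had 1 Gusb count and the low daughter 0, in libraries of 972199 and 917295 counts, with 8769 and 7756 detected genes. That was the only division with under 5 CPM of Gusb in both sisters, and only 4 cells were under 5 CPM. The high daughter of that pair had 19.5 CPM of Hexa, 75.1 of Gaa, 43.2 of Glb1 and 164.6 of Man2b1, and the low daughter 244.2 CPM of Hexa, 562.5 of Gaa, 0 of Glb1 and 257.3 of Man2b1. Without that division, left out after the data were seen, the ICC of Gusb was 0.03 (95% interval -0.11 to 0.17, adjusted p = 0.455, F test) and 0 of the 7 members were called, beside 26.6% of all genes. On ranks of CPM, which limit the weight of a single pair, it was 0.05 over all divisions (adjusted p = 0.348, F test). In run 5 alone it was 0.39 and called (adjusted p = 0.0101, F test, beside 10.3% of all genes), and in run 4 alone 0.06 and not called (adjusted p = 0.397, F test, beside 21.2% of all genes). By experiment the ICC of Gusb was 0.63 in experiment 68 and ranged from -0.30 to 0.43 in the other 8.

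The acid alpha-glucosidase passed on another scale. On ranks of CPM the ICC of Gaa was 0.22 (95% interval 0.08 to 0.35, adjusted p = 0.0061, F test), past the threshold, beside 27.8% of all genes called on that scale, and on log2(CPM + 1), where it was not called, it was above 0 in 8 of 9 experiments. On log2(CPM + 1), where its ICC was 0.13, it was 0.05 with cell cycle scores regressed out (adjusted p = 0.441, F test), beside 13.8% of all genes called. The cycle genes themselves were alike between sisters, with 41 of 42 G1/S and 51 of 52 G2/M genes called. No fit on ranks with the cycle regressed out was made. Sisters lay in adjacent wells in nearly all divisions. Pairs of cells from different divisions in neighbouring wells had an ICC of 0.14 for Gla and 0.10 for Hexa, no lower than the sister values of these genes. It was 0.03 for Man2b1, -0.01 for Glb1, -0.03 for Gusb, -0.05 for Gaa and -0.06 for Fuca1, with none of the 7 and 0.171% of all genes called (F test).

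**Figure D4:**
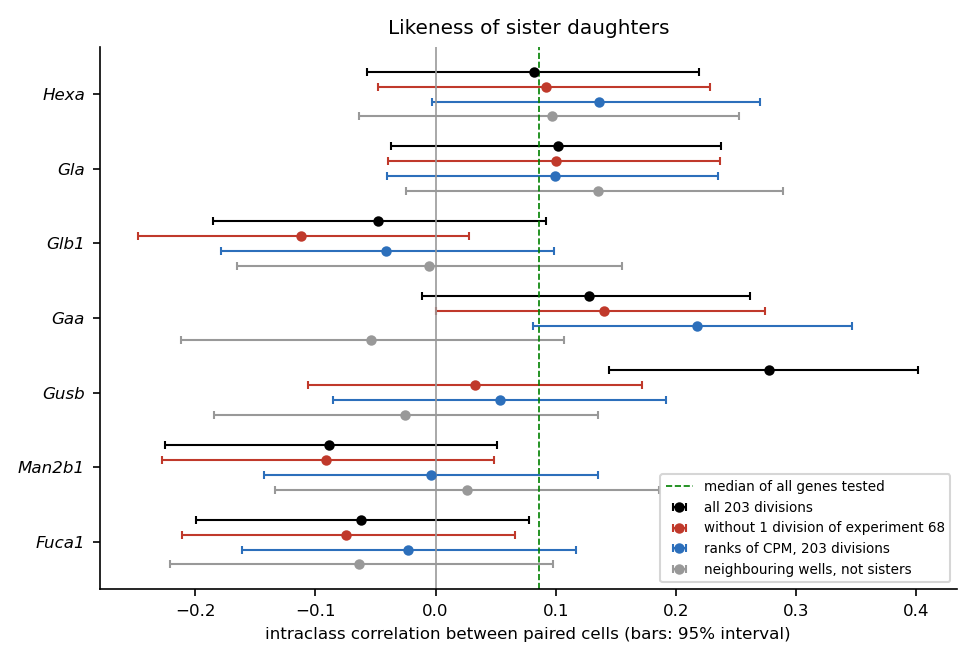
ICC between paired cells with its 95% interval for all divisions (black), without the single division of experiment 68 (red), on ranks (blue) and for neighbouring wells of different divisions (grey), with the median of all genes tested as a green dashed line at 0.09. Gusb moves to 0.03 when the division is left out, and Gaa lies highest on ranks, at 0.22.

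**Figure D5:**
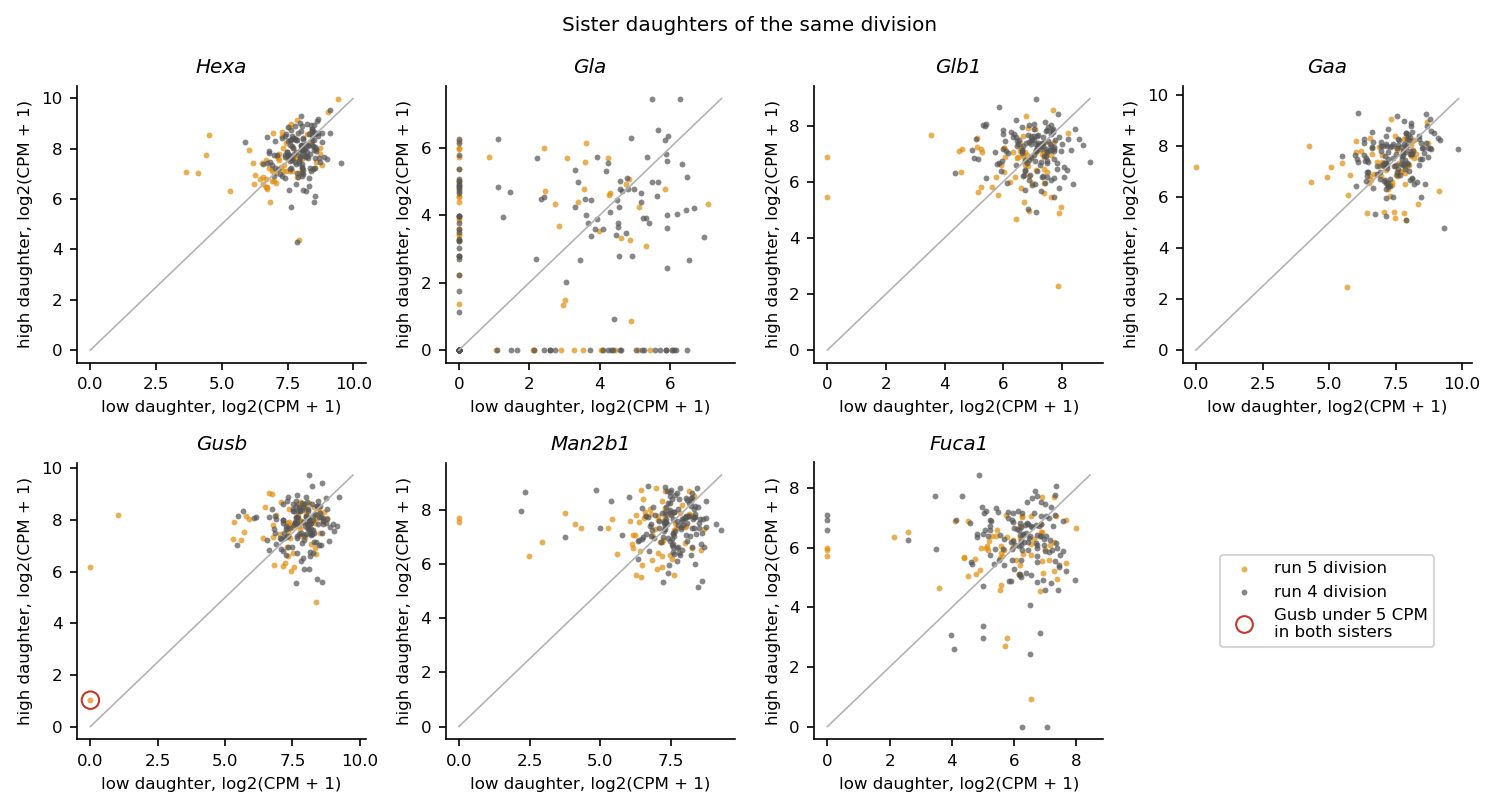
Level of each gene in the high daughter (y axis) against its low sister (x axis), log2(CPM + 1), 1 point per division (orange for run 5, grey for run 4), with the line of equal levels. The ringed Gusb point, with 1 count in the high daughter and 0 in the low one, stands alone, and the Gla points along both axes are divisions in which 1 sister had no count.

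Sisters often differed widely in these genes. The median absolute difference between sisters was 0.53 on the log2(CPM + 1) scale for Hexa, 0.62 for Gusb, 0.64 for Gaa, 0.68 for Glb1, 0.69 for Man2b1, 0.91 for Fuca1 and 2.10 for Gla. For Gla, both sisters had a count in 92 divisions, the high daughter alone in 48, the low daughter alone in 38 and neither in 25. The low daughter had Gla in 65.7% of divisions when its high sister had it and in 60.3% when it did not. Very low cells were few in the other members: under 5 CPM were 0 high and 5 low daughters for Man2b1, 4 and 7 for Fuca1, 1 and 2 for Glb1 and 1 and 1 for Gaa.

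The companion genes of the lysosome gave a wider range of likeness between sisters. Of the 14 other glycosidases tested 2 were called, the sialidase Neu1 (ICC 0.17) among them. Of 7 sulfatases and their activator 2 were called, Arsg (0.19) and Ids (0.17). Among 9 activators and sorting proteins 3 were called: M6pr (0.38), the smaller mannose 6-phosphate receptor, Gm2a (0.30), the cofactor that presents GM2 ganglioside to hexosaminidase A, and Psap (0.29), the precursor of the saposins. Of 19 proteases and lipases 8 were called, led by Ctsd (0.54), Ctss (0.46), Lgmn (0.37) and Asah1 (0.26). These counts stand beside the 26.4% of all genes called.

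All 7 glycosidases had lower fitted levels in run 5 than in run 4, and none passed the test over all genes. With experiments as replicates (4 in run 5, 5 in run 4), edgeR's quasi-likelihood test called 0 of 14788 genes (0%; 1351 genes, 9.14%, at an unadjusted p under 0.05), and DESeq2 called 36 genes (0.243%), no member among them. The log2 difference was -0.36 ± 0.23 for Hexa, -0.35 ± 0.15 for Man2b1, -0.35 ± 0.13 for Glb1, -0.31 ± 0.23 for Gla, -0.28 ± 0.14 for Gaa, -0.25 ± 0.16 for Fuca1 and -0.15 ± 0.14 for Gusb (SE), with adjusted p-values of 0.543 to 0.741. Over all genes 49.4% were at or below 0 and the median was 0.01. Among companion genes the difference was above 0 for 2 of 20 proteases and lipases (median -0.30), 1 of 7 sulfatases and 2 of 9 activators and sorting genes. It was above 0 for 6 of 14 other glycosidases and 6 of 11 transcription regulators of lysosomal genes. In sums per experiment, Hexa averaged 198.5 ± 79.6 CPM in run 5 and 260.4 ± 26.97 CPM in run 4 (SD, n = 4 and n = 5), Gaa 171.04 ± 32.1 CPM in run 5 and 211.1 ± 23.8 CPM in run 4, and Gla 15.1 ± 3.45 CPM in run 5 and 19.1 ± 4.29 CPM in run 4. All 3 overlapped between the runs. Glb1 had 96.3 to 138.4 CPM in run 5 and 137.1 to 172.1 CPM in run 4, and Man2b1 120.4 to 190.2 CPM in run 5 and 172.8 to 237.6 CPM in run 4. On the mean of log2(CPM + 1) per experiment, every run 5 experiment was below every run 4 experiment for Glb1 (6.24 to 6.73 in run 5 and 6.89 to 7.24 in run 4, exact two-sided permutation p = 0.0159, the smallest that 4 against 5 allow). Such a separation was found in 2.94% of 11699 genes, and in that direction in 1.97%. In summed CPM Glb1 overlapped between the runs, with 138.4 in experiment 68 and 137.1 in experiment 69. Experiment 68 held the only cells without a Glb1 count (94.1% of its cells had one). Such cells lower its mean of log2(CPM + 1), and their part in the separation was not tested. Man2b1 (exact permutation p = 0.0317) and Gaa (exact permutation p = 0.0476) were also lower in run 5 on that scale but with overlapping experiments. Of all genes 9.35% had an exact p under 0.05 and 52.2% were lower in run 5. The sign held under both normalizations and without any single experiment, but the size depended on single experiments for Hexa, Gusb, Fuca1 and Gla. Without experiment 60 the log2 difference was -0.18 for Hexa, -0.06 for Gusb and -0.11 for Fuca1. Gusb stood at -0.07 without experiment 72 and at -0.24 without experiment 68 or 73, Hexa at -0.57 without experiment 73 and Gla at -0.21 without experiment 77. The summed HSC markers ranged over experiments from 2535 to 3948 CPM in run 5 and from 1964 to 3604 CPM in run 4, and the macrophage and monocyte markers from 114.2 to 212.2 CPM in run 5 and from 145.9 to 270.5 CPM in run 4, and their part in the difference was not tested. Cultures, plates and sequencing changed together between the runs and cannot be told apart.

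Most of the 7 differed between the 9 experiments by more than the spread of divisions within them. In edgeR's quasi-likelihood test on sums per division, 5 of the 7 were called, Hexa (adjusted p = 1.82e-11), Man2b1 (0.000775), Glb1 (0.00315), Gaa (0.00789) and Fuca1 (0.0228), beside 24.5% of 11699 genes, and Gusb (0.0872) and Gla (0.650) were not. With limma on division means 6 were called, Gusb among them (adjusted p = 0.0269), beside 32.5% of all genes. Hexa had the lowest levels in experiment 60, at 116.1 CPM, and experiment 72, at 144.9 CPM, both of run 5, while the other 7 experiments lay between 226.9 and 290.8 CPM. Glb1 was likewise lowest in those 2 experiments, at 96.4 CPM in experiment 60 and 96.3 CPM in experiment 72, against 127.9 to 172.1 CPM in the others. Man2b1 stood at 143.4 and 120.4 CPM there and at 172.8 to 237.6 CPM elsewhere, and Gaa at 144.2 and 145.6 CPM there and at 183.9 to 249.5 CPM elsewhere. Fuca1 followed another order, with 49.3 CPM in experiment 60, 81.8 CPM in experiment 72 and 71.3 to 102.03 CPM in the rest.

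These calls depended on experiments 60 and 72. Without both, left out after the data were seen, 0 of the 7 members were called, beside 9.79% of all genes, and without experiment 60 alone 2 were. Within run 4 alone 0 of the 7 were called (7.40% of all genes), and within run 5 alone 2 were, Hexa (adjusted p = 5.61e-06) and Fuca1 (0.0434), beside 10.6% of all genes (edgeR quasi-likelihood test). The median total per cell was 588926 counts in experiment 60 and 1145853 in experiment 72, against 541602 to 1183184 in the others. The part of depth in the low levels was not tested. Among the companion genes the experiments differed in 3 of 14 other glycosidases, the fucosidase gene Fuca2 among them, in 3 of 11 transcription regulators of lysosomal genes, in 5 of 9 activators and sorting genes (Ctsa, the protective protein of the beta-galactosidase complex, Psap, M6pr and Sort1 having the smallest p-values), in 9 of 19 proteases and lipases and in 1 of 7 sulfatases. Of the cell cycle lists, 3 of 42 G1/S and 2 of 52 G2/M genes were called in the same test.

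Pearson r between division means of log2(CPM + 1), centred on experiment and plate, ran from -0.06 to 0.33 over the 21 pairs (median 0.10, 18 above 0), over divisions whose values share libraries and depth. With all genes, the median r of a member lay between -0.00 and 0.07 and the 95th percentile between 0.15 and 0.26. The highest was Gaa with Man2b1 at 0.33, followed by Glb1 with Man2b1 at 0.30 and Hexa with Man2b1 at 0.28, and the lowest Gusb with Man2b1 at -0.06. These 3 pairs and those of Hexa with Gaa and with Glb1 (0.26 each) lay above the 99th percentile of the r of their first-named gene with all genes. Over differences between sisters r ran from -0.05 to 0.29 (median 0.07, 18 of 21 pairs above 0). There Gaa stood at 0.20 with Man2b1 and at 0.26 with Glb1, and Hexa at 0.04 with Gaa and -0.05 with Glb1. In 1 division of experiment 68, not the one low in Gusb, the low daughter had no count of Glb1, Gaa or Man2b1. Only 2 of the 7 members were detected in that cell. The part of this division in the r between these 3 genes was not tested, nor was that of the division low in Gusb in the r of Gusb. Of the promoter windows printed above, those of Gaa and Glb1 hold CACGTG and that of Man2b1 does not. Gla, whose window holds the longer element at 2 places, had r of at most 0.11 with any other member, and it was also the gene with the fewest counts. Any link between these promoter letters and r was not tested.

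The 3 genes nearest to each member by r over all divisions were named. For Gaa they were Ctsb (r = 0.55), the protease cathepsin B, Laptm5 (0.54), a lysosomal membrane protein of blood cells, and Por (0.51), the cytochrome P450 reductase. For Man2b1 they were Itm2b (0.46), Snx29 (0.46) and again Laptm5 (0.44), and for Hexa they were Ctsa (0.42), Plgrkt (0.37) and Pdzk1ip1 (0.37). Gaa and Man2b1 shared Laptm5 among their nearest. Without the division of experiment 68 low in Gusb, Hexa shared it too, its nearest then being Ctsa (0.42), Tpp1 (0.41) and Laptm5 (0.40). The nearest genes of Gusb were of other kinds, Rab5if (0.57), Gapdh (0.56), the glycolytic dehydrogenase, and Snrpb (0.55), a spliceosome core protein. Without the division low in Gusb these values were 0.43, 0.52 and 0.33, and the nearest genes of Gusb were then Phb2 (0.57), Apex1 (0.55) and Sdhd (0.55). That division also set the first places of Glb1, Rtn3 (0.49) and Tmx4 (0.40), which fell to 0.34 and 0.29 without it, while Alox5ap stayed at 0.38 with it and 0.40 without it. Fuca1 had Kidins220 (0.35), Itm2c (0.33) and Dhcr7 (0.33), and Gla had only weak neighbours, Abcd3 (0.27), Ppp1r8 (0.27) and Far1 (0.26). Of these, only Kidins220 and Abcd3 stayed among the nearest 3 without the same division.

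Measures of cell state moved with some of the 7 and not with others. A score here is the mean of log2(CPM + 1) over the genes of a list that had a count. Gaa correlated over divisions with the score of the lysosomal proteases and lipases (r = 0.53) and of the HSC markers (0.47) and inversely with the G2/M score (-0.37). Man2b1 had the same signs with smaller values, 0.39, 0.34 and -0.26. Hexa followed the proteases and lipases at 0.36 and the HSC score at 0.23. For Gusb the r was 0.18 with the proteases and lipases, 0.00 with the HSC score and 0.12 with G2/M, and its highest was with the number of detected genes (0.36), a measure of library complexity. The part of depth, cycle stage and cell state in these relations was not tested. All of these r include the division low in Gusb, and its part in those of Gusb was not tested.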

How the data were processed

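The 7 genes and the gene lists were chosen with earlier results of these data known. The authors deposited counts per gene and cell, made with featureCounts (Subread 1.5.0) and SAMtools per the submitters' processing notes (aligner and build not given in the sources used here). Labels and sisters came from the deposited metadata, and 171 count columns with no sample were not used. The 92 spike-ins were left out, and all 55450 gene identifiers matched GENCODE vM21. CPM divides by a cell's counts on genes, and TPM also by merged exon length.

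Sums per experiment and label were tested with edgeR 4.0.16 (TMM, filterByExpr, quasi-likelihood, experiment as block), runs on sums per experiment, and experiments on sums per division. DESeq2 1.42.0 and limma 3.58.1 served as alternatives. Sister ICC used log2(CPM + 1) of genes detected in at least 20% of cells, centred on experiment and plate, with a one-way F test. P-values were adjusted by Benjamini-Hochberg over all genes tested, with a threshold of 0.05. High and low daughters of a division are sisters, and the experiment block pairs the high and low sums of an experiment, not single sisters. The limma fit on sister differences pairs each sister with its own and takes divisions as replicates. The named genes were the 7 members and, for each, the 3 with the highest Pearson r. Some genes of the companion lists are not reported here. Scripts were tested on simulated counts. Counts are reads, not molecules, and the binomial interval of a detection share covers counting error only; the other intervals rest on the spread between experiments or divisions.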

Additional observations from a re-analysis of the deposited data

Results flagged for a closer look

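The Gla difference of experiment 60 stood apart from those of the other 8 experiments. High daughters there had 19.1 CPM and low daughters 4.29 CPM of Gla, a log2 difference (high minus low) of 1.929, and the next highest experiment had 0.40. Its gap to the next, divided by the range, passed the 95% critical value of Dixon's test, which was applied to 14 sets of 9 experiments, the level and the label difference of each gene; chance passes about 1 in 20. The fitted Gla difference was 0.23 over all 9 experiments and depended on single ones: with each left out in turn it ran from 0.03 to 0.36.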

How the results depend on the processing

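DESeq2 called 3 genes for the label and 36 for the run. In run 4 alone the label difference turned to -0.0286 for Hexa, -0.0187 for Gla, -0.00861 for Glb1 and -0.0534 for Man2b1, and in run 5 alone to 0.0389 for Gaa and -0.0432 for Fuca1. With each experiment left out in turn it ran from -0.00441 to 0.0571 for Glb1, from -0.0283 to 0.00672 for Gaa and from -0.0102 to 0.0752 for Fuca1, the label-by-run term of Fuca1 from -0.221 to 0.00642, and the run comparison called 0 to 1 genes. With no replicate block for the experiment, 0 genes were called for the label and Gusb stood at 0.12. Differences between experiments called 0 members and 866 genes in run 4 alone, 2 and 1242 in run 5 alone, 0 and 1145 without experiments 60 and 72, and 2 to 6 members and 1608 to 2933 genes with each experiment left out. Sister ICC called 1618 genes with cell cycle scores regressed out, 0 members in run 4 alone, 1201 genes in run 5 alone, 0 members without the division low in Gusb, 0 members and 20 genes in neighbouring wells, and 0 to 1 members and 2646 to 3155 genes with each experiment left out. The ICC of Gla was -0.053 in run 5 alone, and neighbouring wells gave -0.0541 for Gaa, -0.0256 for Gusb and 0.0264 for Man2b1. The causes were not tested. The low counts of Gla limit what can be said of it.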

Other observations

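The 68 cells sequenced without their sister, 39 high and 29 low, entered no test. In the high cells the median was 211.4 CPM for Hexa, 207.5 for Gusb, 162.7 for Man2b1, 157.04 for Gaa, 141.3 for Glb1 and 66.5 for Fuca1. In the low cells it was 234.02 CPM for Hexa, 241.7 for Gusb, 203.6 for Man2b1, 233.3 for Gaa, 138.9 for Glb1 and 59.4 for Fuca1. Gla had a count in 82.1% of the high and 72.4% of the low cells, with medians of 20.3 CPM and 8.69 CPM, and 1 high cell reached 1983 CPM, while the highest low cell had 144.997 CPM.

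No gene of the companion lists passed edgeR's quasi-likelihood test of the label. It called 0 of 14 other glycosidases, 0 of 7 sulfatases, 0 of 9 activators and sorting genes and 0 of 20 proteases and lipases. Of 11 transcription regulators of lysosomal genes 0 were called.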
